A study of Mus musculus with 20 samples.

Results

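The genes described here are 9 cell cycle inhibitor and senescence genes. Among them are the cyclin-dependent kinase inhibitors Cdkn1a, Cdkn1b, Cdkn1c, Cdkn2a, Cdkn2b, Cdkn2c and Cdkn2d and the transcription factor Trp53, all brakes on cell division. The last is Mdm2, the ubiquitin ligase that restrains p53 and so is not itself a brake. They were chosen by name, with every array probe that carries one of these symbols, which gave 16 probes and 9 of the 25034 named genes on the array. Transcripts were measured in intestinal tissue of 20 C57BL6/j mice, 1 array per mouse, in 4 groups.

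Cre control (6 arrays) were VillinCreER/0 mice, in which the Villin promoter drives a tamoxifen-dependent Cre recombinase in the gut epithelium. BRAFV600E mice (6 arrays) were VillinCreER/0/BrafV600E-LSL/+, so that Cre switches on 1 mutant Braf allele at its own locus. Per the study's methods both groups were 8 to 12 weeks old, received 3 daily doses of 2 mg tamoxifen and were sampled 3 days after the last dose. MEKi (4 arrays) received the MEK inhibitor PD184352 and Vehicle (4 arrays) the carrier of DMSO and Cremophor, as 3 daily injections after 2 injections of 1 mg tamoxifen. The labels give no genotype or age for these 2 groups, and the study describes them as mice that express BrafV600E. The treatment text in the labels, about a statin in female mice, is the same for all 20 arrays and matches none of these groups.

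Cyclin-dependent kinases drive a cell through its cycle, and their inhibitors come in 2 families. The CIP/KIP proteins p21 (Cdkn1a), p27 (Cdkn1b) and p57 (Cdkn1c) bind cyclin and kinase together. The INK4 proteins p16 (Cdkn2a), p15 (Cdkn2b), p18 (Cdkn2c) and p19 (Cdkn2d) bind CDK4 and CDK6 and keep the RB protein active. Cdkn2a also encodes ARF from a second start, which restrains MDM2, the ligase that marks p53 for degradation, and p53 in turn activates Cdkn1a and Mdm2. Strong RAS or RAF signalling is known to switch on several of these genes in other settings, in a durable arrest called oncogene-induced senescence. BRAFV600E against Cre control asks what the mutant kinase alters shortly after it is switched on. MEKi against Vehicle asks what changes when MEK, the kinase below it, is inhibited in mice described as mutant. That second experiment had its own tamoxifen doses and no Cre control group.

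What each probe can report follows from its sequence, so the first 30 bases of the probes on which the results turn are given here, 5′ to 3′ as in the scanner files, in lower case since no part of them is singled out. Positions are on mouse build mm9, and whether a probe lies in a coding exon or a UTR was not analysed here.
Cdkn1a, A_51_P363947: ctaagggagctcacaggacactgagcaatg
Cdkn1a, A_55_P1986282: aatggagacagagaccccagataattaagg
Cdkn1b, A_55_P2026562: gtgcttaaaaggttgcatactgagccaagt
Cdkn2a, A_55_P2008437: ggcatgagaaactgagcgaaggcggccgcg
Cdkn2b, A_52_P498241: catgtgtggggattcacctgcaaaatggca
Cdkn2b, A_55_P1988183: ccagtgatgaattgtagtggtagcaggtta
Cdkn2d, A_55_P2022251: gataacatgagttcatttttctttcttgga
Trp53, A_52_P491849: accgccgtacagaagaagaaaatttccgca

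The 2 Cdkn2b probes lay at chr4:88952437-88952496 and chr4:88952276-88952335, both on the minus strand, and share no run longer than 8 bases, so they are separate readings of 1 transcript. The Cdkn2a probes at chr4:88920405-88920464 and chr4:88920545-88920604 each match both NM_001040654 and NM_009877, so the p16 and ARF products of the gene were not told apart. The 2 Cdkn2c probes share 40 bases and are close to 1 reading. Cdkn1a had 3 probes: 1 at chr17:29237377-29237436 for both of its transcripts, 1 at chr17:29227986-29228045 for the upstream-start transcript NM_001111099 alone, and 1 at chr17:29235299-29235358 with no RefSeq match. Cdkn1c, Cdkn2d and Trp53 had 1 probe each. For each gene the probe with the highest mean over all 20 arrays stood for the gene, and its level is given as log2 of the processed signal relative to the array's 75th percentile, so that 0 is the signal at that percentile. Levels of different probes cannot be set against each other.

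Because the upstream Cdkn1a start has a probe of its own, the 250 bases before it (GRCm38.p6, chr17:29090729-29090978, plus strand, RefSeq) are shown, with matches to the p53 half-site, the short motif that p53 binds in pairs, in capitals.
Cdkn1a, upstream start: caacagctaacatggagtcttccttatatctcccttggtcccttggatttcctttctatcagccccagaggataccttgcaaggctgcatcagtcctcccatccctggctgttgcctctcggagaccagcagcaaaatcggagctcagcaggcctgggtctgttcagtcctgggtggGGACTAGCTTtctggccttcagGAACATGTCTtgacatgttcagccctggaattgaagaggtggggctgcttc
The window held 2 such matches, against 0 in the window of the downstream start. Over promoter windows of 250 bases before and 50 after a start, 4 of the 11 windows of 8 members (Cdkn1a, Cdkn2d, Mdm2 and Trp53) held the half-site on either strand, against 8.356% of 32851 windows of all genes. The E2F-like motif TTTNNCGC was in 3 of the 11 (both Cdkn2a starts and Mdm2), against 5.169% of all windows. The GC box GGGCGG was in 8 of the 11, against 35.66%. The AP-1-like motif TGANTCA and the ETS motif CCGGAAGT were in 0 of the 11, against 7.808% and 3.887%. These are counts of letters and not of bound sites.

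All 20 arrays were used, with 60.8% to 76.8% of spots well above background and 0 saturated spots. Cre control arrays and BRAFV600E replicates 1 and 2 lay on slide 1, BRAFV600E replicates 3 to 6 on slide 2 and both drug groups on slide 3. The scanner software gave the spike-in controls a slope of 0 on all 4 slide 2 arrays, against 0.759 to 1.08 elsewhere. Their median signal there was 14.4 to 28.3, against 73.0 to 918 elsewhere. Y-linked signal was high on 3 of 6 Cre control, 4 of 6 BRAFV600E, 4 of 4 MEKi and 2 of 4 Vehicle arrays. Vehicle replicate 2 had a summed level of exocrine pancreas markers of 10.2 on the log2 scale, against 3.11 or less on the other 19 arrays. Braf itself stood 0.42 (SE 0.20) higher on the log2 scale in BRAFV600E than in Cre control, which did not pass the test (limma adjusted p = 0.171), and its probe does not tell the mutant from the normal allele. The arrays were of whole tissue, in which fewer cells of a type and less RNA per cell cannot be told apart.

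In BRAFV600E against Cre control, 0 of the 9 genes passed the test (limma, adjusted p under 0.05 over 19041 genes tested), while 2372 genes (12.5%) did, 6.19% higher and 6.27% lower. With each array centred on its median the calls were 1711 higher and 612 lower, against 1179 and 1193, with normexp background correction 1592 and 3056, and with no scaling between arrays, which moved the median of all genes to 0.79, 9161 and 176. All 9 passed the filter on dim probes. Differences ran from -0.12 (Cdkn1c) to 0.52 (Cdkn2b) on the log2 scale with a median of 0.0099, against -0.017 over all genes tested. One member, Cdkn2b, had an unadjusted p under 0.05, as did 5738 of all genes. On the probe that stood for each gene, the 95% intervals of all 9 lay within a 2-fold change in either direction. Those of 6 lay within 1.5-fold. The fit behind these intervals held no term for slide. The Cdkn1a probe with no RefSeq match had an interval of -0.21 to 2.42 on the log2 scale. In 0 of the 9 did the 2 groups not overlap, against 7.36% of all genes.

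**Figure D1:**
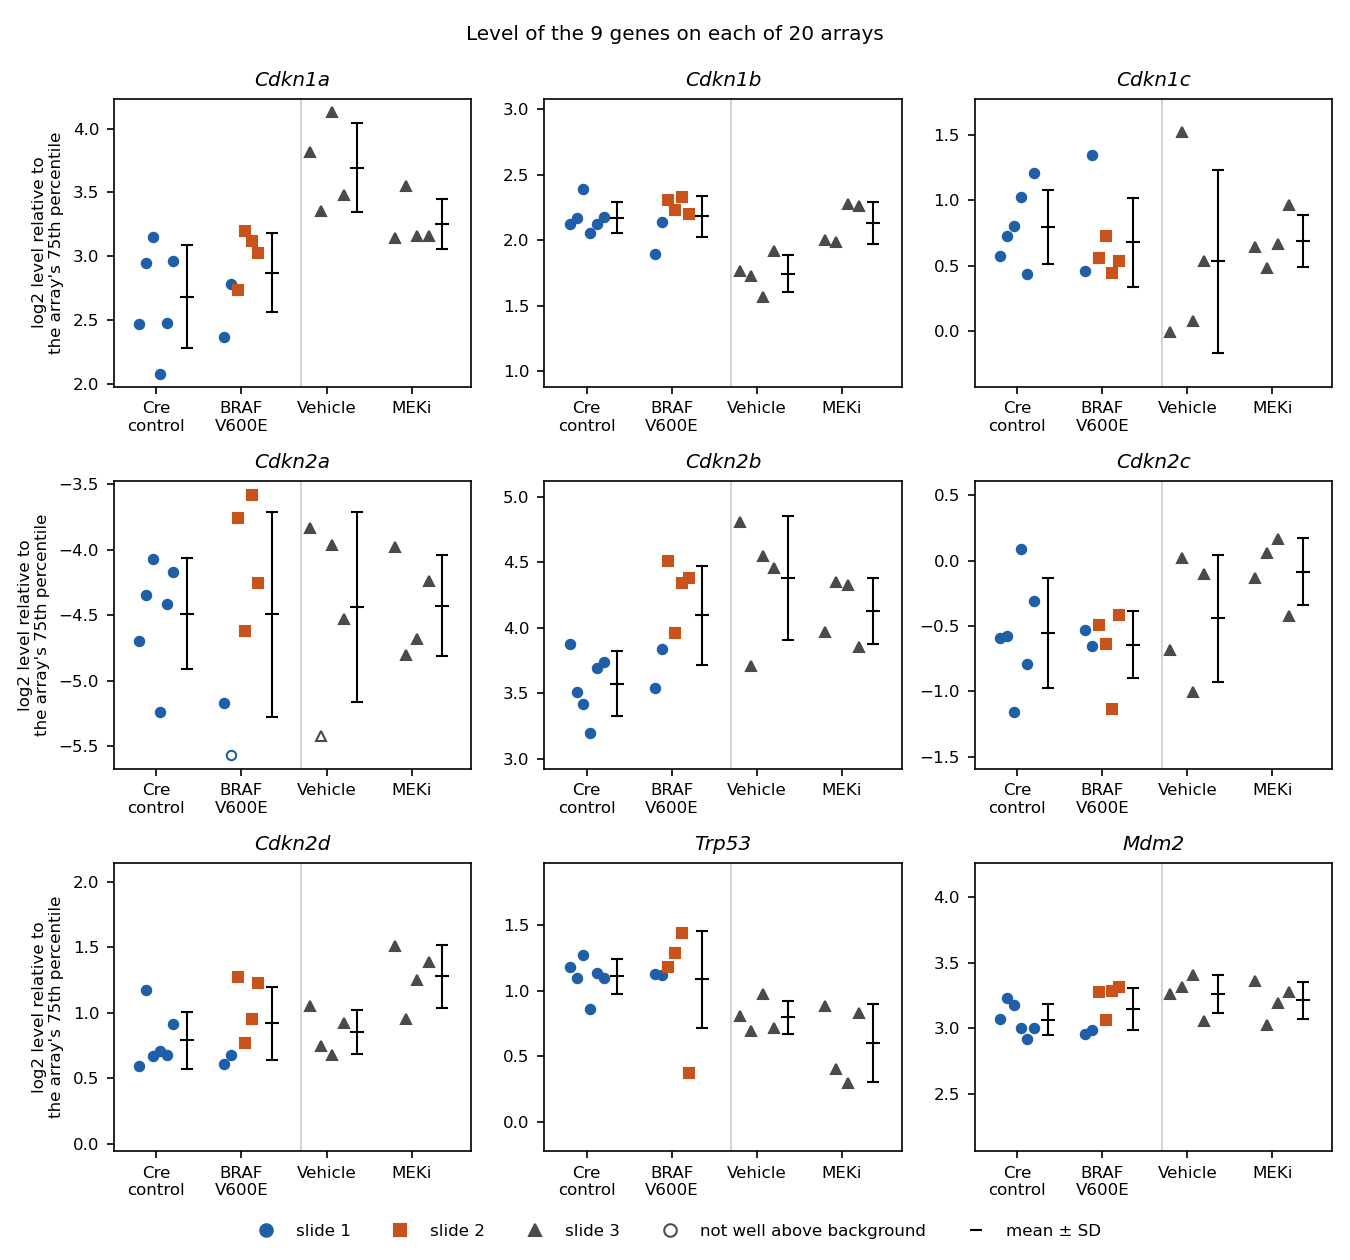
Log2 level of each of the 9 genes relative to the array's 75th percentile (vertical axis) in the 4 groups (horizontal axis), 1 point per array with its slide as shape and colour (open where not well above background), and the mean ± SD beside each group. The 2 groups of each comparison overlap in every panel except Cdkn1b in Vehicle and MEKi, and for Cdkn2b the 4 slide 2 arrays lie above all 6 Cre control arrays.

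Cdkn2b, whose product p15 blocks CDK4 and CDK6 and is known as a target of TGF-beta, came closest to a call. Its level ran from 3.19 through a median of 3.60 to 3.87 in Cre control and from 3.54 through 4.15 to 4.51 in BRAFV600E. The groups overlapped, and 4 of the 6 BRAFV600E arrays stood above every Cre control array. The difference was 0.52 (SE 0.19), or 1.44-fold with a 95% interval of 1.09 to 1.90, with adjusted p = 0.0812. Those 4 high arrays were the 4 on slide 2, at 3.96 to 4.51, and their mean was 0.73 above that of Cre control. The 2 BRAFV600E arrays on slide 1, at 3.54 and 3.84, were inside the Cre control range, and the difference within slide 1 was 0.12 (adjusted p = 0.787). Without BRAFV600E replicate 1 the gene passed the test (0.63, adjusted p = 0.0385), and for slide 2 the slide and the genotype cannot be told apart.

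The other Cdkn2b probe gave 0.33 (SE 0.22, adjusted p = 0.361 over all probes tested), with 4 of 6 BRAFV600E arrays above all Cre control arrays. BRAFV600E replicate 1 was below all Cre control arrays there, at 2.76. Both probes thus split the BRAFV600E arrays by slide.

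**Figure D2:**
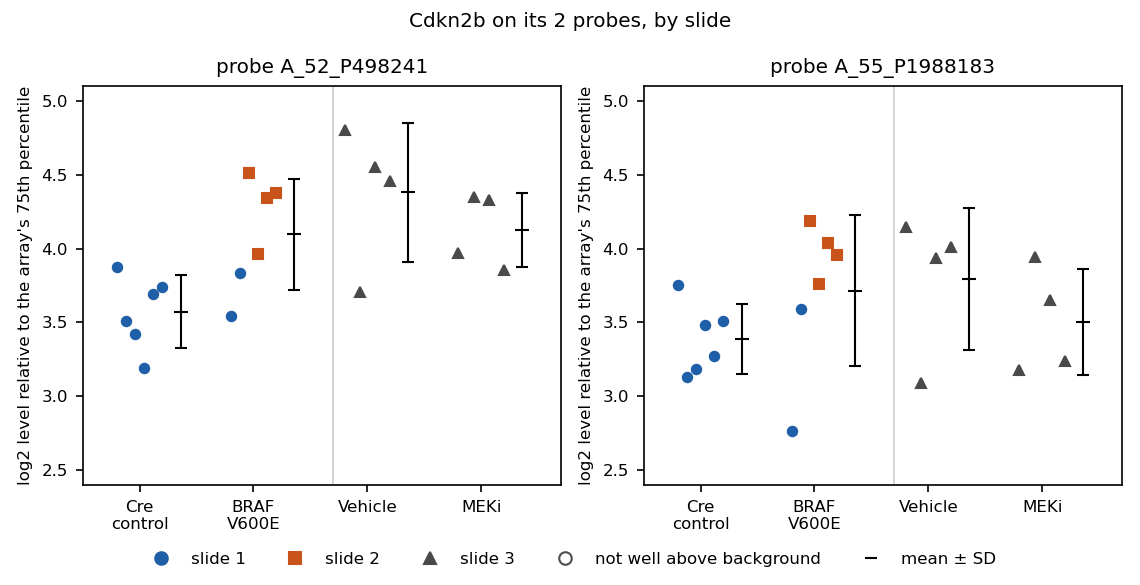
Log2 level of Cdkn2b relative to the array's 75th percentile (vertical axis) on its 2 probes in the 4 groups (horizontal axis), 1 point per array with its slide as shape and colour, and the mean ± SD beside each group. On both probes the 4 slide 2 BRAFV600E arrays lie above all Cre control arrays and the slide 1 BRAFV600E arrays do not.

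Cdkn1a, the p53-activated inhibitor p21, ran from 2.08 through 2.71 to 3.15 in Cre control and from 2.37 through 2.91 to 3.20 in BRAFV600E. Only 1 of 6 BRAFV600E arrays was above all Cre control arrays. The difference was 0.19 (SE 0.20, adjusted p = 0.574), with an interval of 0.839 to 1.55-fold, and it was -0.11 within slide 1 (adjusted p = 0.858). The probe for the upstream-start transcript was dim, well above background on 5 of 6 arrays in each group, and gave 0.24 (SE 0.34, adjusted p = 0.680). The third probe gave 1.11 (SE 0.61, adjusted p = 0.252), with 4 of 6 BRAFV600E and 3 of 6 Cre control arrays well above background.

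Cdkn1b, which encodes p27, had the narrowest interval of the 9. Its level was 2.17 ± 0.12 (SD, n = 6) in Cre control and 2.18 ± 0.16 (SD, n = 6) in BRAFV600E, a difference of 0.0099 with an interval of 0.850 to 1.19-fold (adjusted p = 0.967). Cdkn1c, which encodes p57 and is an imprinted gene, was 0.79 ± 0.28 (SD, n = 6) and 0.68 ± 0.34 (SD, n = 6), a difference of -0.12 (SE 0.18, adjusted p = 0.717). These values placed neither gene apart from its controls, and the interval for Cdkn1c reached 0.700 to 1.22-fold.

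Among the other INK4 genes, Cdkn2a was near the limit of detection. Its standing probe ranged from -5.24 to -4.07 in Cre control and from -5.56 to -3.58 in BRAFV600E, and was well above background on 6 of 6 and 5 of 6 arrays. The difference was -0.0039 (SE 0.33, adjusted p = 0.996), with the widest interval of the 9, from 0.603 to 1.65-fold. That value hid a split by slide: the 2 slide 1 BRAFV600E arrays averaged 0.88 below the Cre control mean (adjusted p = 0.161 within slide 1) and the 4 slide 2 arrays 0.43 above it. The second Cdkn2a probe was not well above background except on Cre control replicate 6, and was not tested.

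Cdkn2c, which encodes p18, was -0.56 ± 0.42 (SD, n = 6) in Cre control and -0.64 ± 0.26 (SD, n = 6) in BRAFV600E, a difference of -0.089 (SE 0.20, adjusted p = 0.808). Its overlapping probe gave -0.14 (SE 0.20, adjusted p = 0.705). Cdkn2d, the p19 INK4 protein, was 0.79 ± 0.22 (SD, n = 6) and 0.92 ± 0.28 (SD, n = 6), a difference of 0.13 (SE 0.16, adjusted p = 0.621) that was -0.14 within slide 1 (adjusted p = 0.707). Neither gene had groups that separated.

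Trp53 and Mdm2 were close to level. Trp53 was 1.11 ± 0.14 (SD, n = 6) in Cre control and 1.09 ± 0.37 (SD, n = 6) in BRAFV600E, a difference of -0.021 (SE 0.17, adjusted p = 0.951). The wider spread in BRAFV600E came from replicate 6, at 0.37, while the other 5 arrays lay between 1.12 and 1.44. Without that array the difference was 0.12 (adjusted p = 0.535). Mdm2, at once a target and a restraint of p53, was 3.06 ± 0.12 (SD, n = 6) and 3.15 ± 0.16 (SD, n = 6), a difference of 0.08 (SE 0.11, adjusted p = 0.683) and of -0.096 within slide 1 (adjusted p = 0.759). Its second probe gave 0.016 (SE 0.29, adjusted p = 0.980).

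**Figure D3:**
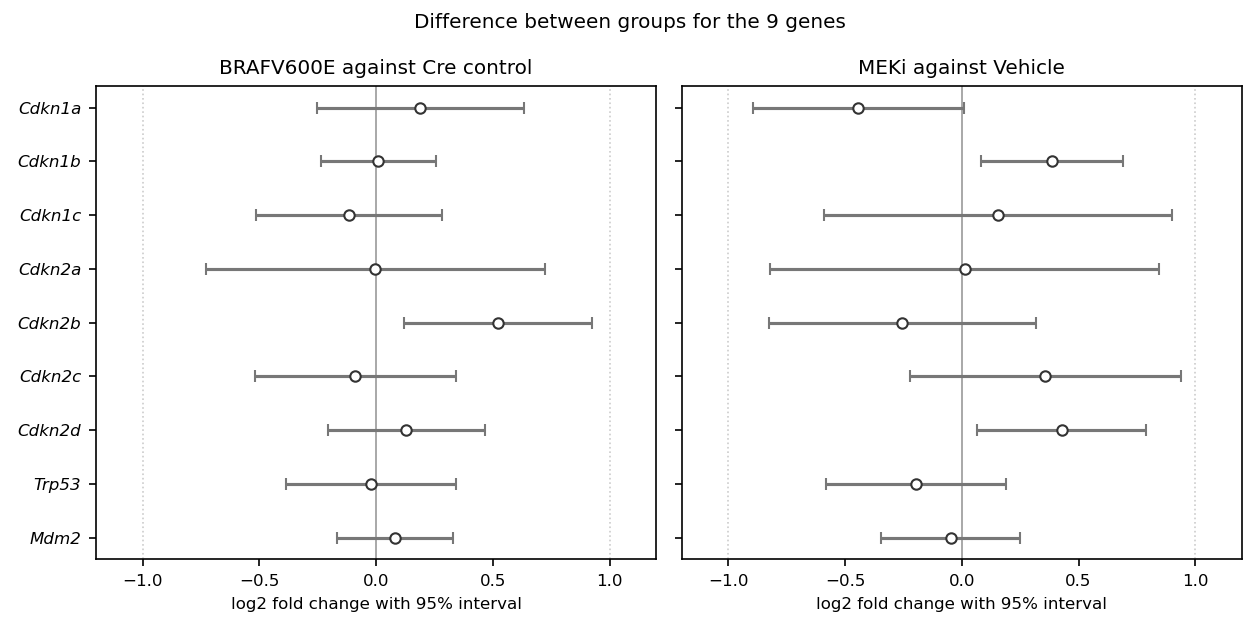
Log2 fold change (horizontal axis) with its 95% interval for each of the 9 genes (vertical axis) in BRAFV600E against Cre control (6 against 6 arrays) and MEKi against Vehicle (4 against 4 arrays), with dotted lines at a 2-fold change. Each interval is for the probe that stands for the gene. All intervals lie within the dotted lines, and 0 of the 9 genes passed the test in either comparison.

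Genes of the pathway that mutant BRAF feeds moved on the same arrays, in a list chosen with earlier results of these data known. Of 11 ERK output genes, 10 rose in BRAFV600E and 0 fell, with a median of 1.00 on the log2 scale. Over all genes tested 12.5% were called, 6.19% higher. The ETS factor Etv4 rose by 2.50 (SE 0.27, adjusted p = 0.000172), the feedback inhibitor Spry4 by 2.19 (SE 0.28, adjusted p = 0.000617), Phlda1 by 1.76 (SE 0.35, adjusted p = 0.00870) and the ERK phosphatase Dusp4 by 1.65 (SE 0.19, adjusted p = 0.000305). With normexp background correction Spry4 was at 1.00 (adjusted p = 0.00628). All 11 were above the Cre control mean on slide 1 as on slide 2, with medians of 1.29 and 1.01. Within slide 1, where 2 BRAFV600E arrays remain, 4 of the 11 passed the test. Calls within slide 1 given for the lists below rest on the same 2 arrays, so 0 calls there does not mean that a difference was absent.

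Genes that p53 is known to activate, other than Cdkn1a and Mdm2, did not move one way. Of 29 tested, 4 rose, 1 fell and 24 did not pass the test, with a median of 0.12, where 12.5% of all genes were called. The kinase Plk3 rose by 1.53 (SE 0.24, adjusted p = 0.00220), the stress gene Ddit4 by 0.76 (SE 0.20, adjusted p = 0.0277), the mitotic gene Gtse1 by 0.61 (SE 0.15, adjusted p = 0.0199) and the desmosomal gene Perp by 0.57 (SE 0.11, adjusted p = 0.00822). Sesn1, a stress-response gene that restrains mTORC1, fell by 0.84 (SE 0.24, adjusted p = 0.0420). Of these calls Gtse1 was lost with normexp (0.25, adjusted p = 0.162), Perp with quantile normalization (0.38, adjusted p = 0.0764) and Sesn1 with median scaling (-0.71, adjusted p = 0.101). Bbc3, which encodes the apoptosis inducer PUMA, was at -0.065 (adjusted p = 0.838) and Ccng1 at 0.35 (adjusted p = 0.280), and these 2 were named after their values were seen. Within slide 1, 0 of the list rose and 2 fell.

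Regulators of p53 and of p27 protein were called at shares to be read beside the 12.5% of all genes. Of 14 p53 regulators, 2 rose and 0 fell: the ubiquitin ligase Cop1 by 0.58 (SE 0.13, adjusted p = 0.0126) and the deubiquitinase Usp28 by 0.56 (SE 0.14, adjusted p = 0.0215). Of 8 genes of p27 turnover, 2 rose and 0 fell. Cks1b, a cofactor of the SCF-SKP2 ligase that marks p27, rose by 0.61 (SE 0.12, adjusted p = 0.00765), and the scaffold Cul1 of the same ligase by 0.74 (SE 0.22, adjusted p = 0.0465). Cul1 was at 0.49 with normexp (adjusted p = 0.0517), and both lists had 0 calls within slide 1.

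Of 19 genes of the RB and E2F axis, on which INK4 proteins act, 1 rose and 2 fell, beside 12.5% of all genes called. Of the 19 values 15 were above 0, with a median of 0.34, against -0.017 over all genes tested. The kinase Cdk6 fell by 0.75 (SE 0.14, adjusted p = 0.00710) and cyclin D2 (Ccnd2) by 0.76 (SE 0.18, adjusted p = 0.0169). CDK6 is bound by INK4 inhibitors and cyclin D2 is its partner, and with no scaling between arrays the 2 genes were at 0.06 and 0.04. Cyclin A2 (Ccna2) rose by 0.76 (SE 0.20, adjusted p = 0.0310). Of 15 proliferation genes 3 rose and 0 fell, with all 15 values above 0 and a median of 0.39: Cdk1 by 1.15 (SE 0.28, adjusted p = 0.0209), Bub1 by 0.70 (SE 0.18, adjusted p = 0.0267) and Plk1 by 0.65 (SE 0.15, adjusted p = 0.0170). Of the 15 proliferation genes 8 were called higher with normexp, 5 with median scaling and 15 with no scaling between arrays. Within slide 1, 0 genes of either list passed the test. There 14 of 15 proliferation genes and 13 of 19 RB and E2F genes stood above the Cre control mean. Their medians were 0.27 and 0.22, against -0.063 over all genes tested.

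Of 25 genes known to control the Cdkn2a locus, 1 rose and 4 fell, where 12.5% of all genes were called. Tbx2, a T-box repressor of the locus, fell by 0.85 (SE 0.21, adjusted p = 0.0209). The Polycomb readers Cbx2 and Cbx7 fell by 0.56 (SE 0.16, adjusted p = 0.0425) and 0.46 (SE 0.13, adjusted p = 0.0341), and the histone demethylase Kdm2b by 0.46 (SE 0.14, adjusted p = 0.0457), and with no scaling between arrays these 3 were at 0.25, 0.35 and 0.35. The Polycomb subunit Suz12 rose by 0.48 (SE 0.12, adjusted p = 0.0266). With each array centred on its median in place of the 75th percentile, 1 rose and 0 fell, and within slide 1 the list had 0 calls. The Polycomb genes Bmi1 and Ezh2, named after their values were seen, were at 0.41 (adjusted p = 0.256) and 0.16 (adjusted p = 0.635).

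Of 12 senescence markers 1 rose and 0 fell, beside 12.5% of all genes called. The 1 was the transcription factor Bhlhe40, by 0.78 (SE 0.17, adjusted p = 0.0146). Glb1, which encodes the lysosomal enzyme behind the senescence-associated galactosidase stain, was at 0.12 (adjusted p = 0.610), and lamin B1 (Lmnb1), whose loss marks senescent cells, at 0.84 (adjusted p = 0.292). Both were named after their values were seen. The list had 0 calls within slide 1, and so had the secretory factors described next. The median of the secretory factors was nevertheless -0.75 on slide 1 and -0.49 on slide 2, with 6 of 29 genes above the Cre control mean on each. Over all genes tested the medians were -0.063 and 0.0097.

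Secreted factors of the senescence-associated secretory phenotype had 29 genes tested, of which 1 rose and 5 fell, beside 12.5% of all genes called. Of the 29 values 23 were below 0, with a median of -0.53. Median scaling gave 2 higher and 3 lower, and no scaling between arrays 4 higher and 0 lower with a median of 0.28. The binding protein Igfbp4 fell by 1.17 (SE 0.31, adjusted p = 0.0287), interleukin 1 beta (Il1b) by 1.14 (SE 0.29, adjusted p = 0.0252), the growth factor Hgf by 1.03 (SE 0.19, adjusted p = 0.00529) and the cytokine Csf2 by 0.94 (SE 0.21, adjusted p = 0.0141). The urokinase receptor Plaur rose by 0.89 (SE 0.25, adjusted p = 0.0367). Several of these factors are made by immune and stromal cells. Myeloid markers (0 of 4 rose, 1 fell) had summed levels of 4.53 to 5.51 in BRAFV600E and 5.37 to 6.81 in Cre control on the log2 scale. T lymphoid markers (0 of 6 rose, 2 fell) had 3.38 to 5.69 and 4.84 to 6.48. The part of these cells in the result was not tested.

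Of 12 genes of TGF-beta signalling, which is known to induce Cdkn2b, 0 passed the test, with a median of 0.18. Of 9 genes of the MYC network, which represses Cdkn1a and Cdkn2b, 1 rose and 1 fell: Myc by 0.94 (SE 0.28, adjusted p = 0.0488), and Mycn fell by 0.97 (SE 0.18, adjusted p = 0.00514). Over all genes 12.5% were called, and neither list had a call within slide 1.

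Markers of several gut cell types differed between BRAFV600E and Cre control, where 12.5% of all genes were called. Of 5 Paneth cell markers 4 fell and 0 rose, with summed levels of 7.88 to 9.62 in BRAFV600E and 9.70 to 10.55 in Cre control. Of 6 smooth muscle markers 2 rose and 0 fell, with summed levels of 6.13 to 7.33 and 6.15 to 6.75. Of 4 stem cell markers 2 fell and 0 rose, Ascl2 by 1.52 (adjusted p = 1.57e-05) and Lgr5 by 0.84 (adjusted p = 0.0419). Of 7 enteroendocrine markers 2 fell and 0 rose, among them Chga by 1.99 (adjusted p = 6.74e-05), of 6 goblet markers 2 fell and 1 rose, and of 4 enteric neuron and glia markers 2 fell and 0 rose. With no scaling between arrays the medians of the stem, goblet, enteroendocrine and enteric neuron and glia lists were 0.34, 0.27, 0.65 and 0.10. Of 9 enterocyte markers 8 had values below 0, none of them called, while Alpi rose by 1.84 (adjusted p = 0.00225). Enterocyte markers were abundant in both groups, with summed levels of 10.2 to 11.1 in BRAFV600E and 10.6 to 11.4 in Cre control. The part of these shifts in the levels of the 9 genes was not tested.

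In MEKi against Vehicle, 0 of the 9 genes passed the test over 19231 genes, while 380 (1.98%) did, 1.09% higher and 0.884% lower. All 9 passed the filter on dim probes. Differences ran from -0.44 (Cdkn1a) to 0.43 (Cdkn2d), with a median of 0.012 against 0.037 over all genes. Unadjusted, Cdkn1b and Cdkn2d had a p under 0.05, as did 3154 of all genes. In 1 of the 9, Cdkn1b, the groups did not overlap, as they did not for 12.2% of all genes. On the probe that stood for each gene, the intervals of all 9 lay within 2-fold in either direction. Those of 2, Trp53 and Mdm2, lay within 1.5-fold.

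Cdkn1b was 2.01, 1.99, 2.28 and 2.26 on the 4 MEKi arrays and 1.77, 1.73, 1.57 and 1.92 on the 4 Vehicle arrays. All MEKi arrays were above all Vehicle arrays. The difference was 0.39 (SE 0.13), or 1.31-fold with an interval of 1.06 to 1.62, with limma adjusted p = 0.196. It was 0.38 without Vehicle replicate 2 and 0.47 on the arrays with high Y-linked signal (adjusted p = 0.258 and 0.290). The other Cdkn1b probe was well above background on 4 MEKi arrays and 1 Vehicle array, so no difference is given for it.

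Cdkn2d was 1.51, 0.96, 1.25 and 1.39 on the MEKi arrays and 1.05, 0.75, 0.68 and 0.93 on the Vehicle arrays. On 3 of 4 MEKi arrays it was above every Vehicle array. The difference was 0.43 (SE 0.16), or 1.35-fold with an interval of 1.05 to 1.73, with limma adjusted p = 0.222. Without Vehicle replicate 2 it was 0.39 (adjusted p = 0.316).

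Cdkn1a was 3.14, 3.55, 3.16 and 3.16 on the MEKi arrays and 3.82, 3.36, 4.13 and 3.48 on the Vehicle arrays. On 3 of 4 MEKi arrays it was below every Vehicle array, and replicate 2 was inside the Vehicle range. The difference was -0.44 (SE 0.20, adjusted p = 0.314), with an interval of 0.538 to 1.01-fold. It was -0.72 on the arrays with high Y-linked signal, which leaves 2 Vehicle arrays (adjusted p = 0.176). The probe for the upstream-start transcript gave -0.41 (SE 0.28, adjusted p = 0.565, well above background on 3 of 4 arrays in each group), and the third probe 0.0093 (SE 0.37, adjusted p = 0.994).

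Cdkn2b was 3.97, 4.35, 4.33 and 3.85 on the MEKi arrays and 4.81, 3.71, 4.55 and 4.46 on the Vehicle arrays. The groups overlapped through Vehicle replicate 2, the lowest of all 8 and the array with the pancreas markers. The difference was -0.25 (SE 0.25, adjusted p = 0.687) with that array and -0.48 (adjusted p = 0.238) without it. The other probe gave -0.29 (SE 0.27, adjusted p = 0.706).

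For each of the remaining genes the MEKi and Vehicle arrays overlapped. Cdkn2c was at 0.36 (SE 0.25, adjusted p = 0.555), and at 0.76 on the arrays with high Y-linked signal (adjusted p = 0.194). Cdkn1c was at 0.15 (SE 0.33, adjusted p = 0.874), with Vehicle replicate 2 at 1.52 and the other 3 Vehicle arrays between -0.0042 and 0.54, and at 0.48 without that array (adjusted p = 0.248). Cdkn2a, well above background on 4 MEKi and 3 Vehicle arrays, was at 0.012 (SE 0.36, adjusted p = 0.991) and at -0.32 without Vehicle replicate 2 (adjusted p = 0.612). Trp53 was at -0.20 (SE 0.17, adjusted p = 0.637) and Mdm2 at -0.047 (SE 0.13, adjusted p = 0.907).

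The ERK output genes, chosen with earlier results known, moved again on these arrays: 6 of 11 fell and 0 rose, with a median of -1.61. Over all genes tested 1.98% were called, 0.884% lower. Etv4 fell by 2.95 (SE 0.23, adjusted p = 0.00329), Etv5 by 2.57 (SE 0.17, adjusted p = 0.00156), Spry4 by 2.34 (SE 0.24, adjusted p = 0.00516; -1.12 with normexp) and Phlda1 by 2.14 (SE 0.38, adjusted p = 0.0336). Without Vehicle replicate 2, 5 of the 11 fell.

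The lists around the 9 genes had 0 or 1 call each under MEKi, where 1.98% of all genes were called. Of 29 p53 target genes 1 fell and 0 rose, the apoptosis gene Pmaip1 (NOXA) by 0.90 (SE 0.17, adjusted p = 0.0390), with a median of 0.10. Of 25 regulators of the Cdkn2a locus 1 rose and 0 fell, Cbx7 by 0.68 (SE 0.14, adjusted p = 0.0489). With median scaling neither Pmaip1 nor Cbx7 passed (adjusted p = 0.0530 and 0.106). Without Vehicle replicate 2 neither of these 2 lists had a call, and 1 gene of the RB and E2F axis fell. Of 29 secretory factors 1 fell and 0 rose, Plaur by 1.74 (SE 0.22, adjusted p = 0.0137). The p53 regulators, RB and E2F axis, p27 turnover, senescence markers, proliferation genes, MYC network and TGF-beta signalling had 0 calls, with medians between -0.10 and 0.24. Cbx7 and Plaur were the genes of these lists called in both comparisons, Cbx7 lower in BRAFV600E and higher in MEKi and Plaur higher and then lower.

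**Figure D4:**
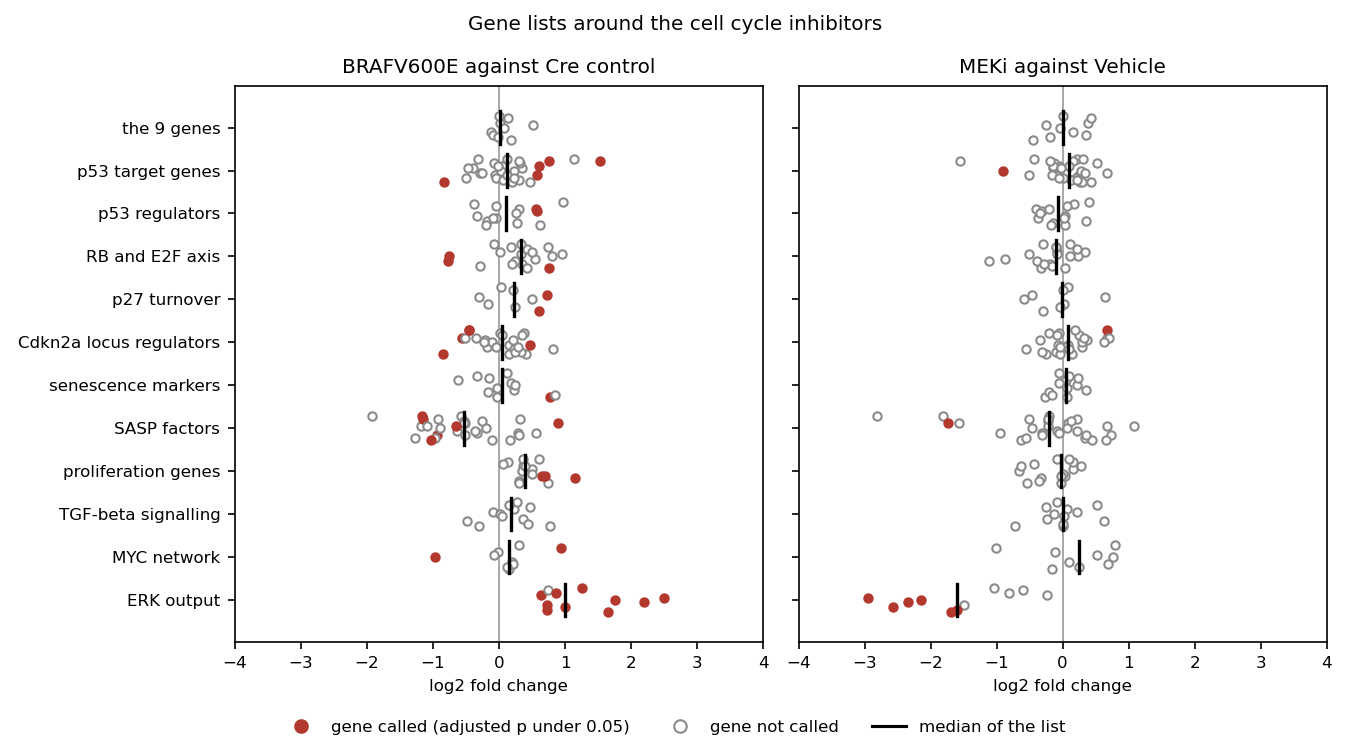
Log2 fold change (horizontal axis) of each tested gene in the 9 genes and 11 related lists (vertical axis) in BRAFV600E against Cre control and MEKi against Vehicle, with called genes filled, others open and a bar at the list's median. The 9 genes cluster near 0 with 0 filled points, while the ERK output genes lie at medians of 1.00 and -1.61.

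Markers of other cell types are given beside these results, where 1.98% of all genes were called and 12.2% had groups that did not overlap. T lymphoid markers had summed levels of 5.03 to 5.93 in MEKi and 3.96 to 5.02 in Vehicle on the log2 scale, with 1 of 6 called, granzyme B (Gzmb), which rose by 1.36 (adjusted p = 0.0496, and 0.0720 with median scaling). Exocrine pancreas markers had 1.86 to 2.16 in MEKi and 2.34 to 10.2 in Vehicle, with 0 of 5 called. Goblet markers had 9.21 to 9.85 in MEKi and 8.49 to 9.18 in Vehicle, with 0 of 6 called. The summed levels of T lymphoid, exocrine pancreas and goblet markers did not overlap between MEKi and Vehicle. All 5 Paneth markers had values above 0, with a median of 0.80 and 0 called. Of 4 stem cell markers 1 rose, Ascl2 by 1.00 (adjusted p = 0.0309). The part of these cells in the levels of the 9 genes was not tested beyond leaving out Vehicle replicate 2.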

How the data were processed

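One-colour Agilent mouse arrays of 20 intestinal samples were analysed, 1 per mouse. The deposited scanner files give each spot's intensity as the processed signal, background-subtracted by Agilent Feature Extraction 10.5.1.1 per the submitters' processing notes, with 0 or 1 marks for spots well above background. The authors' deposited value table held the same intensity values within 0.6%, unscaled, and served as the alternative with no scaling.

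Here log2 of the processed signal was taken minus each array's 75th percentile. Control spots and outliers were left out and spots of 1 probe averaged. Of 56605 probes, 34018 were named through an accession, 9998 through a symbol and 318 through a synonym, and 12271 stayed unnamed. The probe with the highest mean over 20 arrays stood for a gene, and 11474 genes had several. Genes were tested where well above background on at least 6 of 12 or 4 of 8 arrays. Each comparison was fitted with limma 3.58.1 in R 4.3.3 without covariates, with Benjamini-Hochberg adjustment over all genes tested and a threshold of 0.05. The fit was tested on simulated data with independent noise on each array and no slide effect, so that test says nothing about slide. Groups came from the labels. Replicate numbers follow accession order. Samples were separate mice, and the number of arrays limits the precision. Named genes were all 9 members and, of each list, up to 4 called genes with the largest change in each direction, with exceptions stated. The members and lists were chosen with earlier results of these data known. Alternatives covered background correction, scaling, the filter, the choice of probe, array weights, slide, Y-linked signal, 1 fit of all arrays and leaving out each array. The alternative with high Y-linked arrays alone was chosen after seeing the data.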

Additional observations from a re-analysis of the deposited data

Results flagged for a closer look

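Over the 16 probes and 4 groups, 60 sets of arrays were examined for 1 array far from the others of its group, of which about 1 in 20 would be marked by chance, and 6 were marked. Cdkn1a on MEKi replicate 2 was the highest of its group at 3.55 on the log2 scale, with the next at 3.16, and was the MEKi array inside the Vehicle range. Cdkn1b on Cre control replicate 3 was the highest at 2.39, with the next at 2.18. Cdkn1c on BRAFV600E replicate 2 was the highest at 1.34, with the next at 0.73. Cdkn2c on BRAFV600E replicate 5 was the lowest at -1.13, with the next at -0.65. The second Mdm2 probe on MEKi replicate 2 was the highest at -2.33, with the next at -3.13. Trp53 on BRAFV600E replicate 6 was the lowest at 0.37, with the next at 1.12. All 6 spots were well above background.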

How the results depend on the processing

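No paired analysis was possible because replicate numbers follow accession order and pair no mice. In BRAFV600E against Cre control, 2372 genes were called, against 4648 with normexp background correction, 9337 with no scaling between arrays, 1533 with slide as a block, 746 within slide 1, 409 on arrays with high Y-linked signal, and 1444 to 2888 with 1 array left out. Of the 9 genes 0 were called, against 1 with normexp and 1 with array weights (Cdkn2b in both, adjusted p = 0.0457 and 0.0474), 7 with no scaling, and 0 to 1 with 1 array left out. In MEKi against Vehicle, 380 genes were called, against 72 with no scaling, 234 with no filter on dim probes, 1135 with array weights, 53 with Y-linked signal as a covariate, 87 on arrays with high Y-linked signal, and 83 to 371 with 1 array left out, and 0 of the 9 under every one of these.

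Small differences turned sign. In BRAFV600E against Cre control, quantile normalization gave Cdkn1b -0.063 and Cdkn2a 0.19. Median scaling gave Cdkn1c 0.0083, Cdkn2a 0.12, Cdkn2c 0.036 and Trp53 0.10. No scaling gave Cdkn1c 0.69, Cdkn2a 0.81, Cdkn2c 0.72 and Trp53 0.79, beside a median of all genes of 0.79. Array weights gave Cdkn2a 0.041, Cdkn2c 0.0024 and Trp53 0.0069. Y-linked signal as a covariate gave Cdkn2a 0.0073 and Trp53 4.14e-05. All 6 Cre control arrays lay on slide 1, so slide as a block gives the same differences as slide 1 alone by construction. This single set of differences was Cdkn1a -0.11, Cdkn1b -0.16, Cdkn1c 0.11, Cdkn2d -0.14, Trp53 0.016 and Mdm2 -0.096. Arrays with high Y-linked signal gave Cdkn1a -0.13, Cdkn1b -0.093, Cdkn1c 0.022, Cdkn2c 0.25 and Mdm2 -0.026. With 1 array left out, Cdkn1b ran from -0.019 to 0.067, Cdkn2a from -0.19 to 0.21, Cdkn2c from -0.21 to 0.040 and Trp53 from -0.092 to 0.12. In MEKi against Vehicle, Cdkn2a was -0.15 with normexp, -0.032 with quantile normalization, -0.014 with no scaling, -0.098 with array weights, -0.51 with Y-linked signal as a covariate and -0.53 on arrays with high Y-linked signal, and Mdm2 was 0.0034 with array weights. With 1 array left out, Cdkn1c ran from -0.024 to 0.48, Cdkn2a from -0.32 to 0.21 and Mdm2 from -0.11 to 0.015. The cause was not tested. Cdkn2a lay near background, which limits what its values can show.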
